A study of Homo sapiens with 4 samples.

Results

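The genes described here are 52 genes of DNA replication and S phase, chosen by name and read from the non-control probes of all 4 arrays that carry one of these names. Each of the 52 was measured, out of 29245 genes on the array design, and 27309 genes in all were tested. Total RNA came from A2780s, an established human epithelial ovarian cancer (EOC) cell line. One group held 2 clones with a CRISPR/Cas9 knockout of GALNT3 (GALNT3 KO), and the other held 2 clones labelled GALNT3/T6 KO, in which lentiviral shRNA against GALNT6 was added to GALNT3 KO clones. Lentiviral transduction and its selection therefore go together with that group and cannot be told apart from it. Each clone had an array of its own, on which its RNA (Cy5) was set against RNA of mock-transfected control cells (Ctrl, Cy3), so that every value below is a log2 ratio of KO over Ctrl unless it is named as a difference or a channel signal. The dyes were not swapped, and no Ctrl sample was set against another Ctrl sample, so the tests leave out the spread of Ctrl itself. All 4 arrays lay on 1 slide.

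Both groups carry their label with a limit. The GALNT3 probe was too dim to be well above background in the Ctrl or the KO channel of the GALNT3 KO arrays, and it stood at 4.80 and 5.08 on the GALNT3/T6 KO-labelled arrays, which goes against the label. GALNT6 stood at -0.47 and -0.38 on the GALNT3 KO arrays and at -0.66 and -0.69 on the GALNT3/T6 KO-labelled arrays. Of 7 epithelial markers 6 were well above background in the Ctrl channel on every array, and so were all 5 leukocyte markers. Of 3 endothelial markers 2 were as well, while the other, PECAM1, was above it on none. Detection alone thus did not separate these lists. The mean log2 ratio of the 7 epithelial markers was 0.09 on each GALNT3 KO array and 2.39 and 2.97 on the GALNT3/T6 KO-labelled arrays, where 6 of the 7 were called higher. The other lists changed there as well. Of 4 ovarian lineage markers 3 were called higher, and of 7 fibroblast markers 3 were called higher and 3 lower. Of 5 leukocyte markers 1 was called higher and 1 lower, and of 2 endothelial markers measured 1 was called higher. Of all genes tested 24.8% were called higher there and 23.1% lower. The part of these marker differences in the results below was not tested.

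DNA is copied once per cell division. In G1 phase the origin recognition complex, CDC6 and CDT1 load the MCM2-7 helicase onto origins, and in S phase CDC45 and the GINS complex join the helicase to unwind DNA ahead of the polymerases. PCNA, a ring loaded by replication factor C (RFC), holds the polymerases on their template, and RPA covers the single strands. Most of these genes are transcribed as cells enter S phase, under E2F factors that cyclin E and CDK2 release from RB proteins. In a growing cell line their mRNA levels follow how many cells are cycling, and fewer cells in S phase cannot be told apart from less RNA per cell in these samples.

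The promoters of these genes share letters that their choice by name did not use. RefSeq promoter windows (GRCh38.p14, 250 bases before to 50 after the start) were at hand for 45 of the 52 genes. The E2F-type letters, TTT then C or G, then C or G, then CG, were searched on both strands, as was the NF-Y box CCAAT. An E2F-type match lay in 24 of the 45 windows (53.3%), against 8.7% of all 27305 windows, and CCAAT in 26 (57.8%), against 35.7%. Both lay in 16 of the 45 (35.6%), against 3.3% of all windows. Each of the 4 MCM2-7 genes with a window and each of the 5 with one among CDC45, GINS and MCM10 held an E2F-type match, while 1 of 5 windows of the nucleotide supply genes did. Among members called lower on the GALNT3/T6 KO-labelled arrays the E2F-type match stood in 13 of 23 windows (56.5%), and among those not called in 10 of 20. Promoters of 5 genes are shown because the results below turn on their genes, as 150 bases that end just before the start, with E2F-type and CCAAT matches on either strand in capitals. On the GALNT3/T6 KO-labelled arrays E2F1 rose and CDC45 fell, each with several matches, DTL fell with a match of each kind, CCNE1 fell with none in its window, and MCM7 differed between the clones:
E2F1 (chr20:33686386-33686535, reverse strand): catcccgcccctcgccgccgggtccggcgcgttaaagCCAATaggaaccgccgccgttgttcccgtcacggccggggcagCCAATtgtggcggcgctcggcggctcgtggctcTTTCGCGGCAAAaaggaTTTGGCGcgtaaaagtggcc
CDC45 (chr22:19479770-19479919, forward strand): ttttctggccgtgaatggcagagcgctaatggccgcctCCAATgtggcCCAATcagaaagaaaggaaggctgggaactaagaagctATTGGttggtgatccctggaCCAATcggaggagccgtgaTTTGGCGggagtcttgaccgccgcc
DTL (chr1:212035598-212035747, forward strand): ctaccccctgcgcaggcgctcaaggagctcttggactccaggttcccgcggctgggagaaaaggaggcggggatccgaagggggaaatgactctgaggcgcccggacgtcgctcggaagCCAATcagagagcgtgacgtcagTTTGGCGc
CCNE1 (chr19:29811841-29811990, forward strand): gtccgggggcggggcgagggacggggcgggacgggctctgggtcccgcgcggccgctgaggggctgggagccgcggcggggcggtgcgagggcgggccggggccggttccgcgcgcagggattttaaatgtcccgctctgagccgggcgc
MCM7 (chr7:100101398-100101547, reverse strand): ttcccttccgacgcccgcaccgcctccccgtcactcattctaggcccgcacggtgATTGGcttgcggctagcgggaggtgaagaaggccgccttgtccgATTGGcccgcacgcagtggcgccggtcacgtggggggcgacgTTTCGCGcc
A match describes these letters and is no sign that a factor is bound there.

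The replication genes as a list lay below Ctrl in both groups. Their median stood at -0.36 and -0.41 in the GALNT3 KO clones and -0.74 and -0.25 on the GALNT3/T6 KO-labelled arrays, while the median of all genes tested lay between 0.01 and 0.04 on each array. Below 0 stood 44 of the 52 on each GALNT3 KO array, and 39 and 29 on the GALNT3/T6 KO-labelled arrays, where clone 2 had the fewer. In all, 20 of the 52 were called in none of the comparisons.

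**Figure D1:**
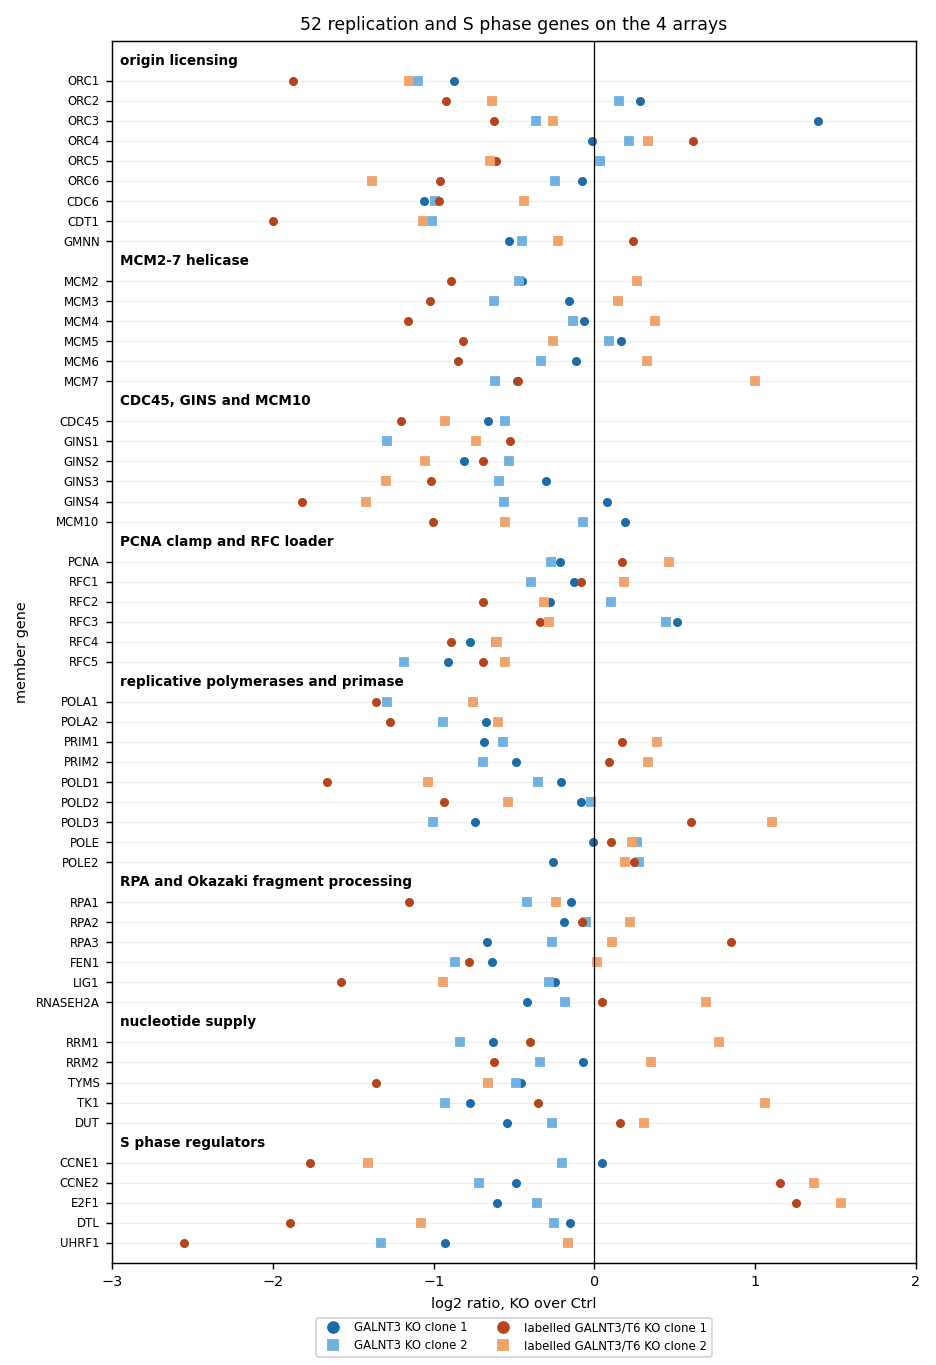
Log2 ratio of KO over Ctrl (x axis) of each of the 52 genes (rows, grouped by subcomplex) on the 4 arrays, 1 point per clone. Most points of the GALNT3 KO clones lie between -1 and 0, the CDC45 and GINS rows lie left of 0 on the GALNT3/T6 KO-labelled arrays, and in the MCM2-7 rows the 2 clones labelled GALNT3/T6 KO lie apart.

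In GALNT3 KO the change was mainly downward and of moderate size. The 12 genes that fell were 4 of the polymerase and primase genes, 3 of CDC45, GINS and MCM10, 2 for origin licensing, 2 of the RFC loader and CCNE2, and 0 of the 6 MCM2-7 genes. Lowest stood GINS1 at -1.29, RFC5 at -1.05, CDC6 at -1.03 and POLA1 at -1.02. limma called 12 of the 52 lower (23.1%), where 6.42% of all genes tested were called lower, and 1 higher (1.92%), where 4.78% of all genes were. By the criterion the study used, p of at most 0.05 with a change of at least 1.5-fold and no adjustment, 15 were lower and 0 higher, against 6.39% and 3.21% of all genes. The median over the 52 was -0.40, beside 0.02 over all genes tested. With either GALNT3 KO array left out, the lone array of that group is assumed to vary like the other group. The calls then did not hold, for members or for other genes. The fit on the 2 GALNT3 KO arrays alone called 29 members, beside 9503 of all 27309 genes. With Agilent's own log ratio 4 members were called, all lower, beside 597 of all genes. With the replicate block no member was called, beside 81 of all genes.

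On the GALNT3/T6 KO-labelled arrays 6 of 9 origin licensing genes and 6 of 6 among CDC45, GINS and MCM10 fell, while E2F1, CCNE2, POLD3 and ORC4 rose. GINS4 at -1.62, CCNE1 at -1.59, CDT1 at -1.54 and ORC1 at -1.51 were furthest below Ctrl, and E2F1 at 1.40 and CCNE2 at 1.26 furthest above. limma called 25 of the 52 lower (48.1%), where 23.1% of all genes tested were called lower. It called 4 higher (7.69%), where 24.8% of all genes were. By the study's criterion 23 were lower and 3 higher, against 17.3% and 14.6% of all genes. The median over the 52 was -0.47, beside 0.03 over all genes. Leaving out either clone leaves a lone array in this group. The split of the calls then depended on the clone, and the member median was -0.74 in clone 1 and -0.25 in clone 2.

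Set against each other directly, the groups differed in both directions. E2F1, CCNE2 and POLD3 were higher on the GALNT3/T6 KO-labelled arrays than in GALNT3 KO by 1.88, 1.86 and 1.72 on the log2 scale, and CCNE1, GINS4 and DTL lower, at -1.51, -1.38 and -1.29. limma called 7 of the 52 higher (13.5%) and 11 lower (21.2%), where 11.8% of all genes tested were called in each direction. The share of higher calls thus lay near that of all genes. By the study's criterion 9 were higher and 13 lower, against 13.2% and 13.7% of all genes. The median difference over the 52 was -0.04, beside 0.00 over all genes. Median centring in place of loess turned the split to 8 higher and 3 lower. It called 5160 of all genes, 53.8% of them higher. Leaving out either GALNT3 KO array, which leaves a lone array in that group, took away most calls of members and of all genes. Leaving out either array labelled GALNT3/T6 KO raised the number of calls for both.

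**Figure D2:**
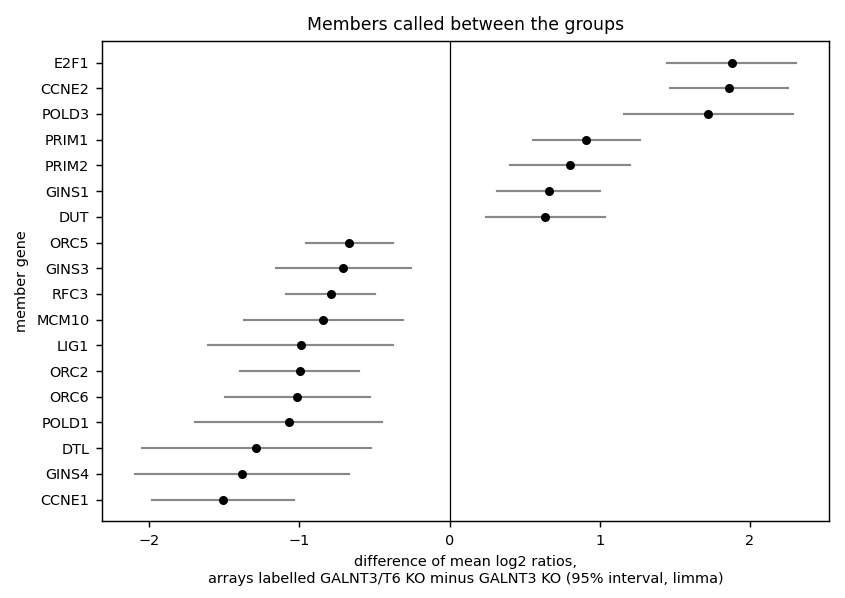
Difference between the mean log2 ratios of the 2 groups (x axis, arrays labelled GALNT3/T6 KO minus GALNT3 KO) for the 18 members called between them (rows), with the 95% interval from limma as bars. The 7 genes right of 0 run from DUT at 0.64 to E2F1 at 1.88, and the 11 left of 0 reach CCNE1 at -1.51.

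The cyclin E and E2F genes, which time the entry into S phase, held the 2 largest differences between the groups among the 52 members, those of E2F1 and CCNE2. E2F1, the transcription factor that activates many replication genes, stood at -0.61 and -0.36 on the GALNT3 KO arrays and at 1.26 and 1.53 on the GALNT3/T6 KO-labelled arrays. Its 10 replicate spots per array, up to 1 of them left out as an outlier, had an SD of 0.227 to 0.327 within an array. The groups did not overlap, and on the GALNT3/T6 KO-labelled arrays E2F1 rose to 1.40 ± 0.12 (SE, adjusted p = 0.00115), while in GALNT3 KO its mean of -0.48 missed the threshold (adjusted p = 0.0633). CCNE2, 1 of the pair of cyclin E genes that activate CDK2, stood at -0.49 and -0.72 and at 1.15 and 1.37. It fell in GALNT3 KO, to -0.60 ± 0.11 (SE, adjusted p = 0.0408), and rose on the GALNT3/T6 KO-labelled arrays, to 1.26 ± 0.11 (SE, adjusted p = 0.0012). CCNE1, the other cyclin E gene, ran the other way from CCNE2 on the GALNT3/T6 KO-labelled arrays. It stood at 0.04 and -0.20 in GALNT3 KO, not called (adjusted p = 0.678), and at -1.77 and -1.41 on the GALNT3/T6 KO-labelled arrays, where it fell to -1.59 ± 0.13 (SE, adjusted p = 0.00104). Between the groups E2F1 differed by 1.88 ± 0.16 (SE, adjusted p = 0.00264), CCNE2 by 1.86 ± 0.15 (SE, adjusted p = 0.00216) and CCNE1 by -1.51 ± 0.18 (SE, adjusted p = 0.00629). In the Ctrl channel the log2 signal of E2F1 ran over 0.22, that of CCNE1 over 0.38 and that of CCNE2 over 0.32, while in the KO channel they ran over 2.36, 1.97 and 2.39, so the spread lay mainly in the KO channel.

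DTL, the substrate receptor of the ubiquitin ligase that removes CDT1 in S phase, stood at -0.15 and -0.25 in GALNT3 KO and at -1.90 and -1.08 on the GALNT3/T6 KO-labelled arrays, where it fell to -1.49 ± 0.21 (SE, adjusted p = 0.00513). Its difference between the groups was -1.29 ± 0.29 (SE, adjusted p = 0.0376). UHRF1, which helps to copy DNA methylation onto the new strand, stood at -0.93 and -1.33 and at -2.56 and -0.16. Both clones labelled GALNT3/T6 KO were below Ctrl, but so far apart that its mean of -1.36 was not called (adjusted p = 0.108), and its second probe stood at -0.49 and -0.39 there.

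**Figure D3:**
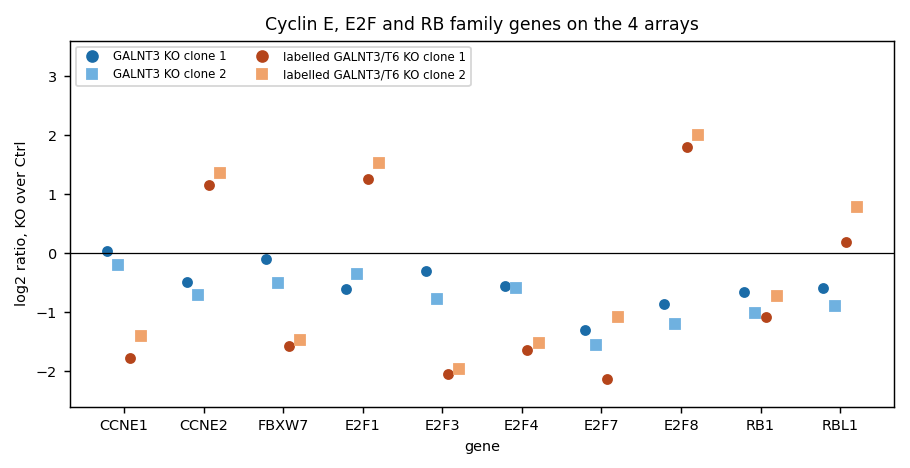
Log2 ratio of KO over Ctrl (y axis) of cyclin E, E2F and RB family genes (x axis) on the 4 arrays, 1 point per clone. CCNE2, E2F1 and E2F8 lie above 0 on the GALNT3/T6 KO-labelled arrays and below 0 in both GALNT3 KO clones, and CCNE1, FBXW7, E2F3 and E2F4 lie below -1 on the GALNT3/T6 KO-labelled arrays.

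Among the 9 origin licensing genes 6 fell and 1 rose on the GALNT3/T6 KO-labelled arrays, and 2 fell in GALNT3 KO. ORC1, the subunit of the origin recognition complex that is made anew in each cycle, stood at -0.87 and -1.10 in GALNT3 KO and at -1.88 and -1.15 on the GALNT3/T6 KO-labelled arrays. It fell in both, to -0.99 ± 0.19 (SE, adjusted p = 0.0464) and to -1.51 ± 0.19 (SE, adjusted p = 0.00394). CDC6, which recruits the helicase to ORC, stood at -1.06 and -0.99 and at -0.97 and -0.44, and it too fell in both, to -1.03 ± 0.15 (SE, adjusted p = 0.0308) and -0.70 ± 0.15 (SE, adjusted p = 0.017). The 4 GALNT3 KO values of ORC1 and CDC6 lay between -1.10 and -0.87. CDT1, the partner of CDC6 in helicase loading, stood at -1.06 and -1.01 in GALNT3 KO, where its mean of -1.04 missed the threshold (adjusted p = 0.0562), and at -2.003 and -1.07 on the GALNT3/T6 KO-labelled arrays, where it fell to -1.54 ± 0.23 (SE, adjusted p = 0.00652). Geminin (GMNN), the inhibitor of CDT1, was not called in any comparison, at -0.53 and -0.45 and at 0.24 and -0.23.

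ORC2 to ORC6, the smaller subunits, gave no call in GALNT3 KO, and on the GALNT3/T6 KO-labelled arrays 3 of the 5 fell and 1 rose. ORC6 stood at -0.08 and -0.24 and at -0.96 and -1.38, and it fell on the GALNT3/T6 KO-labelled arrays to -1.17 ± 0.13 (SE, adjusted p = 0.0027), with a difference between the groups of -1.01 ± 0.18 (SE, adjusted p = 0.0202). Its second probe stood lower in both groups, at -0.57 and -0.49 and at -1.51 and -1.78. ORC2, at 0.28 and 0.15 and at -0.92 and -0.64, differed by -0.999 ± 0.15 (SE, adjusted p = 0.0117), and ORC5, at 0.03 and 0.04 and at -0.61 and -0.65, by -0.67 ± 0.11 (SE, adjusted p = 0.0155). The second probe of ORC5 stood higher on each array, at 0.30 and 0.38 and at -0.10 and -0.46. ORC4 stood at -0.02 and 0.22 in GALNT3 KO and at 0.61 and 0.33 on the GALNT3/T6 KO-labelled arrays, where it was called above Ctrl at 0.47 ± 0.11 (SE, adjusted p = 0.0268), while the difference from GALNT3 KO was not called (adjusted p = 0.189). The call against Ctrl was lost in 9 of 15 other settings, and its second probe stood at 0.10 and -0.09 on those arrays. ORC3, at 1.39 and -0.36 in GALNT3 KO, was the 1 member whose GALNT3 KO clones lay more than 2-fold apart, and it was not called in any comparison.

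The CDC45, GINS and MCM10 genes, whose products turn the loaded helicase into an active one, all fell on the GALNT3/T6 KO-labelled arrays, 6 of 6, with means of -1.62 to -0.63. CDC45 stood at -0.66 and -0.56 in GALNT3 KO and at -1.20 and -0.93 on the GALNT3/T6 KO-labelled arrays, and it fell to -0.61 ± 0.10 (SE, adjusted p = 0.0382) and to -1.07 ± 0.10 (SE, adjusted p = 0.0018). The 4 GINS subunits form 1 complex, but their genes did not move as 1. GINS1 stood at -1.30 and -1.29 in GALNT3 KO, the lowest mean of the 52 there at -1.29 ± 0.09 (SE, adjusted p = 0.0116), and higher, at -0.53 and -0.74, on the GALNT3/T6 KO-labelled arrays, so that the groups differed by 0.66 ± 0.13 (SE, adjusted p = 0.0254). GINS4 ran the other way, at 0.08 and -0.56 and at -1.82 and -1.42, with a fall on the GALNT3/T6 KO-labelled arrays to -1.62 ± 0.19 (SE, adjusted p = 0.00324) and a difference of -1.38 ± 0.27 (SE, adjusted p = 0.0253). Its second probe gave -0.73 and -0.64 on those arrays, a smaller fall in the same direction.

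GINS2 stood at -0.81 and -0.53 and at -0.69 and -1.05, and its groups overlapped. It fell in both, to -0.67 ± 0.13 (SE, adjusted p = 0.0466) and -0.87 ± 0.13 (SE, adjusted p = 0.00655). GINS3, at -0.30 and -0.59 and at -1.02 and -1.30, fell on the GALNT3/T6 KO-labelled arrays to -1.16 ± 0.12 (SE, adjusted p = 0.00227), with a difference of -0.71 ± 0.17 (SE, adjusted p = 0.0458). In GALNT3 KO its 2 probes disagreed, with means of -0.45 and 0.27, and neither direction was called. On the GALNT3/T6 KO-labelled arrays its second probe stood at -0.15 and -0.44, a smaller fall in the same direction. MCM10, which binds the active helicase, stood at 0.19 and -0.07 and at -1.004 and -0.56, with a difference of -0.84 ± 0.20 (SE, adjusted p = 0.0448), and its second probe stood lower on each array, down to -2.98 and -2.43 on the GALNT3/T6 KO-labelled arrays.

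The RFC genes of the clamp loader fell in part. RFC5 stood at -0.91 and -1.19 in GALNT3 KO and at -0.70 and -0.55 on the GALNT3/T6 KO-labelled arrays, with means of -1.05 ± 0.11 (SE, adjusted p = 0.0194) and -0.63 ± 0.11 (SE, adjusted p = 0.0095). RFC4, at -0.77 and -0.61 and at -0.89 and -0.61, overlapped between the groups and fell in both, to -0.69 ± 0.11 (SE, adjusted p = 0.0349) and -0.75 ± 0.11 (SE, adjusted p = 0.00595). RFC3, a further small subunit, was the 1 member called higher in GALNT3 KO, at 0.51 and 0.45 with a mean of 0.48 ± 0.08 (SE, adjusted p = 0.0375), beside -0.34 and -0.28 on the GALNT3/T6 KO-labelled arrays, where it fell to -0.31 ± 0.08 (SE, adjusted p = 0.0322). Its 2 probes disagreed: the second stood at -0.44 and -0.32 in GALNT3 KO and at -0.39 and -0.32 on the GALNT3/T6 KO-labelled arrays, so neither the rise nor the difference between the groups of -0.79 ± 0.11 (SE, adjusted p = 0.0104) was shared by it. RFC2 fell on the GALNT3/T6 KO-labelled arrays to -0.50 (adjusted p = 0.0439). RFC1, the large subunit, was not called by the probe used, with means of -0.26 and 0.05, though its second probe had means of -0.89 and -0.95. PCNA, the clamp, was not called, and lay below Ctrl in GALNT3 KO, at -0.22 and -0.27, and above it on the GALNT3/T6 KO-labelled arrays, at 0.17 and 0.47, with an interval of the difference of 0.18 to 0.95 and adjusted p = 0.0553.

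The subunits of single polymerases did not move together on the GALNT3/T6 KO-labelled arrays. POLD3, an accessory subunit of DNA polymerase delta, stood at -0.74 and -1.002 in GALNT3 KO and at 0.60 and 1.103 on the GALNT3/T6 KO-labelled arrays. It fell to -0.87 ± 0.15 (SE, adjusted p = 0.0402) in GALNT3 KO and rose to 0.85 ± 0.15 (SE, adjusted p = 0.011) on the GALNT3/T6 KO-labelled arrays, a difference of 1.72 ± 0.21 (SE, adjusted p = 0.00708), and its second probe had the same signs, with means of -0.32 and 1.03. POLD1, the catalytic subunit of the same enzyme, stood at -0.21 and -0.35 and at -1.66 and -1.04, and it fell on the GALNT3/T6 KO-labelled arrays to -1.35 ± 0.17 (SE, adjusted p = 0.00372), with a difference of -1.07 ± 0.24 (SE, adjusted p = 0.0353). The second POLD1 probe stood lower on each array, at -0.81 and -0.87 in GALNT3 KO and at -2.10 and -1.50 on the GALNT3/T6 KO-labelled arrays. POLD2, which bridges these subunits, fell there to -0.73 (adjusted p = 0.00877). So the catalytic and the bridging subunit lay below Ctrl on the GALNT3/T6 KO-labelled arrays while the accessory one lay above.

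Polymerase alpha and primase, which make the primers, parted in the same way. POLA1, the catalytic subunit, stood at -0.75 and -1.29 in GALNT3 KO and at -1.36 and -0.76 on the GALNT3/T6 KO-labelled arrays, with falls to -1.02 ± 0.20 (SE, adjusted p = 0.0476) and -1.06 ± 0.20 (SE, adjusted p = 0.0135), and its groups overlapped. POLA2, its regulatory subunit, fell on the GALNT3/T6 KO-labelled arrays to -0.94 (adjusted p = 0.0148). The primase genes lay below Ctrl in GALNT3 KO and above it on the GALNT3/T6 KO-labelled arrays. PRIM1, the catalytic primase subunit, stood at -0.69 and -0.57 and at 0.17 and 0.39, with a fall to -0.63 ± 0.10 (SE, adjusted p = 0.0339) in GALNT3 KO and a difference of 0.91 ± 0.14 (SE, adjusted p = 0.0117). PRIM2, at -0.49 and -0.69 and at 0.09 and 0.33, fell to -0.59 ± 0.11 (SE, adjusted p = 0.0423) and differed by 0.80 ± 0.15 (SE, adjusted p = 0.0225). On the GALNT3/T6 KO-labelled arrays neither primase gene was called against Ctrl. POLE and POLE2 of polymerase epsilon were not called, with all their values between -0.26 and 0.28, though the second POLE probe stood at means of -0.62 and -0.94.

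Of the genes for RPA and for joining the lagging strand, LIG1, the ligase that seals Okazaki fragments, was the 1 called. It stood at -0.25 and -0.29 in GALNT3 KO and at -1.58 and -0.94 on the GALNT3/T6 KO-labelled arrays, where it fell to -1.26 ± 0.17 (SE, adjusted p = 0.00445), with a difference of -0.99 ± 0.23 (SE, adjusted p = 0.0428). FEN1, the nuclease that trims the flaps before ligation, stood at -0.64 and -0.87 and at -0.78 and 0.01 and was not called. RPA1, RPA2, RPA3 and RNASEH2A were not called either, with group means from -0.69 to 0.48.

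Nucleotide supply gave few calls. TYMS, thymidylate synthase, stood at -0.46 and -0.49 and at -1.36 and -0.66, and it fell on the GALNT3/T6 KO-labelled arrays to -1.01 ± 0.18 (SE, adjusted p = 0.0109). DUT, the enzyme that keeps uracil out of DNA, stood at -0.54 and -0.26 and at 0.16 and 0.31, and the groups differed by 0.64 ± 0.15 (SE, adjusted p = 0.0435). RRM1, RRM2 and TK1, for ribonucleotide reductase and thymidine kinase, were not called, and on the GALNT3/T6 KO-labelled arrays their clones stood on either side of Ctrl, at -0.40 and 0.77, -0.63 and 0.35 and -0.35 and 1.06. The second RRM2 probe disagreed, at 0.40 and 0.61 in GALNT3 KO, above Ctrl where the probe used lay below it, and at -0.65 and -0.34 on the GALNT3/T6 KO-labelled arrays.

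The MCM2-7 helicase genes showed small group means beside a wide gap between clones. None was called in GALNT3 KO, where their means ran from -0.55 to 0.13, and MCM5 alone was called on the GALNT3/T6 KO-labelled arrays, at -0.54 ± 0.15 (SE, adjusted p = 0.0408). On the GALNT3/T6 KO-labelled arrays clone 1 stood below Ctrl for each of the 6, between -1.16 and -0.48, whereas clone 2 stood between -0.26 and 0.997. MCM7 stood at -0.48 and -0.62 in GALNT3 KO and at -0.48 and 0.997 on the GALNT3/T6 KO-labelled arrays, and MCM4 at -0.06 and -0.13 and at -1.16 and 0.38. The 95% interval of the difference between the groups was wide, at -0.49 to 2.11 for MCM7, -1.65 to 1.06 for MCM4 and -0.89 to 1.18 for MCM2; a difference of 2-fold between the groups lies inside each of these intervals.

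The gap between the 2 clones labelled GALNT3/T6 KO was not limited to the helicase. Clone 2 stood above clone 1 for 43 of the 52 genes, where 51.0% of all genes did, and the median difference was 0.39, beside 0.01 over all genes tested. Nor was it particular to the 52. In the list of 24 mitosis genes described below, 20 were higher in clone 2, with a median difference of 0.56. Of the 59 further replication genes described below, 43 were higher, with a median of 0.20. At least 2-fold higher in clone 2 were 8 of the 52 (15.4%), where 2.01% of all genes were, and at least 2-fold lower were 0, where 0.952% were. These 8 were UHRF1 (2.39), MCM4 (1.54), MCM7 (1.47), TK1 (1.41), RRM1 (1.18), MCM3 (1.18), MCM6 (1.17) and MCM2 (1.16), as differences in log2 ratio. UHRF1 rests on 1 of its 2 probes, as the second stood at -0.49 and -0.39 in these clones. With median centring in place of loess 48 of the 52 were higher in clone 2 and 13 at least 2-fold, with a median difference of 0.69, beside 4.61% of all genes at 2-fold and a median of 0.12 over all genes. The median difference was 1.17 for the MCM2-7 genes, 0.98 for nucleotide supply, 0.64 for RPA and Okazaki fragment processing and 0.40 for the polymerases, while it was 0.03 for CDC45, GINS and MCM10. Between the GALNT3 KO clones the median was -0.09, and 1 of the 52, ORC3, was at least 2-fold lower in clone 2, where 0.143% of all genes were, and 0 were higher by as much, where 0.15% were. With 1 array per clone these differences have no replicate check and no test.

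**Figure D4:**
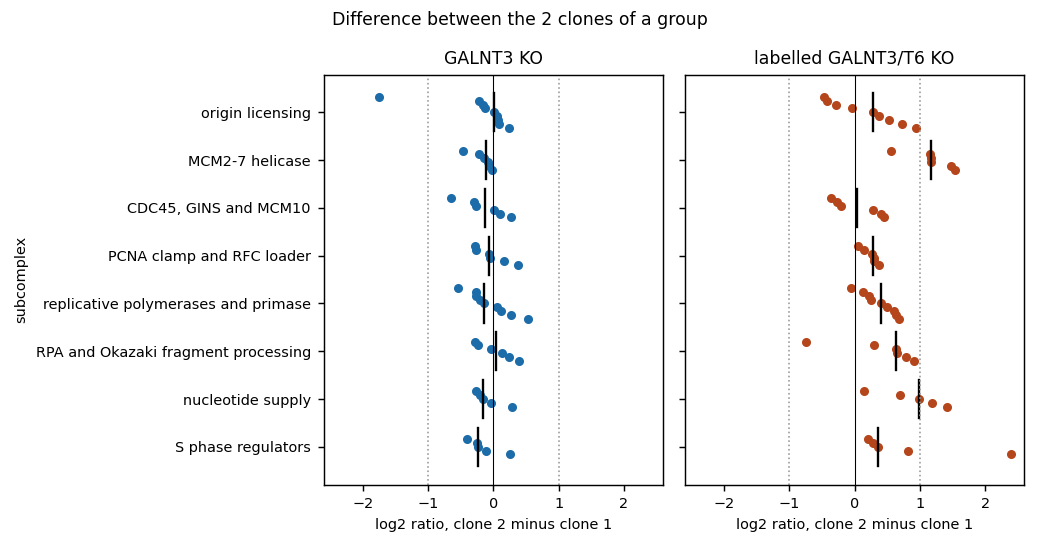
Log2 ratio of clone 2 minus that of clone 1 (x axis) for each of the 52 genes, by subcomplex (rows), in GALNT3 KO (left) and in the group labelled GALNT3/T6 KO (right), with the subcomplex median as a black bar and dotted lines at a 2-fold difference. On the right the MCM2-7 median lies at 1.17 and that of CDC45, GINS and MCM10 at 0.03, while on the left the medians lie near 0.

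The gap came mainly from the KO channel. From clone 1 to clone 2 the KO signal of UHRF1 differed by 2.38 and its Ctrl signal by -0.02, and for MCM6 the values were 1.15 and -0.02. MCM2 was the exception among the 8, with 0.44 in the KO channel and -0.72 in the Ctrl channel, where its signal of 13.53 on the array of clone 2 lay under the 14.14 to 14.25 of the other arrays. Over the 4 arrays the median range of the 52 genes was 0.25 in the Ctrl channel and 1.02 in the KO channel, and 51 of them ranged more widely in the KO channel. Some genes outside replication that are abundant in many cells differed too, with -0.12 and 1.14 for GAPDH and -0.70 and 0.71 for ACTB on the GALNT3/T6 KO-labelled arrays. The share of all genes at least 2-fold higher in clone 2 ran from 1.19% of the dimmest (mean log2 signal under 10) to 8.10% of the brightest (over 16), beside 0 of 4 and 2 of 2 members. It was 2.18% between 10 and 12, beside 0 of 4 members. Between 12 and 14 it was 3.03% and between 14 and 16 it was 4.11%, beside 3 of 23 and 3 of 19 members. The part of signal level in this gap was not tested further.

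**Figure D5:**
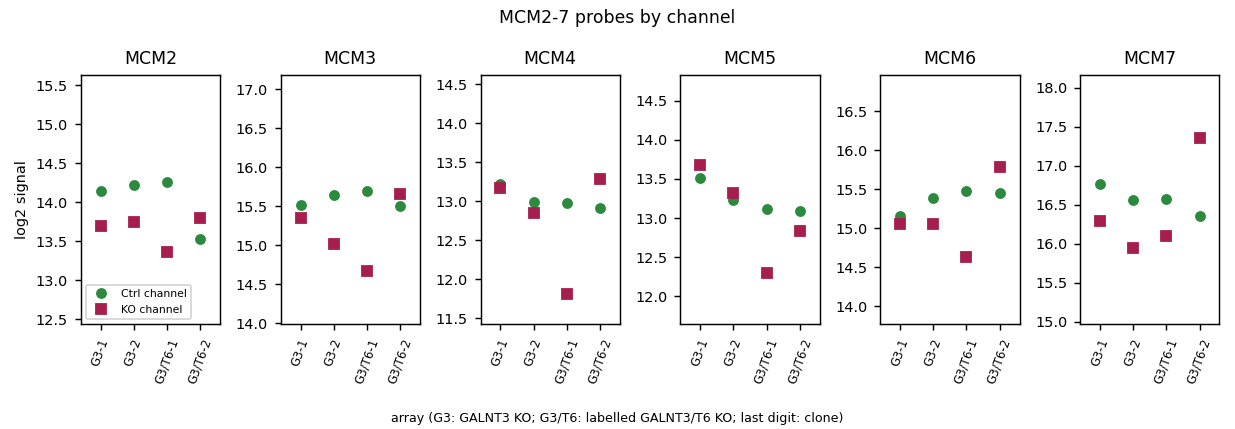
Log2 signal of the MCM2 to MCM7 probes (y axis, 1 panel per gene, axes of equal span) in the Ctrl channel and the KO channel of each array (x axis). The KO signal of MCM3, MCM4, MCM5, MCM6 and MCM7 is higher in clone 2 than in clone 1 of the group labelled GALNT3/T6 KO beside a flatter Ctrl signal, and for MCM2 the Ctrl signal is lower on the array of clone 2.

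Further genes of the pathway, 59 in a list beside the 52, were read in the same fit. In GALNT3 KO 1 was called higher (1.69%, beside 4.78% of all genes) and 10 lower (16.9%, beside 6.42%). On the GALNT3/T6 KO-labelled arrays 10 were higher (16.9%, beside 24.8%) and 31 lower (52.5%, beside 23.1%). Between the groups 6 were higher (10.2%) and 11 lower (18.6%), beside 11.8% of all genes each way, so the share of higher calls lay near that of all genes. POLE4, a small subunit of polymerase epsilon, stood at 0.40 and 0.41 in GALNT3 KO and at 2.80 and 2.68 on the GALNT3/T6 KO-labelled arrays, with means of 0.41 ± 0.08 (SE, adjusted p = 0.0495) and 2.74 ± 0.08 (SE, adjusted p = 0.000108). It was the largest rise of the list, and POLD4, the small subunit of polymerase delta, rose there too, to 0.73 ± 0.09 (SE, adjusted p = 0.004). RNASEH2C, a subunit of RNase H2, rose to 0.91 ± 0.09 (SE, adjusted p = 0.00206). SAMHD1, which breaks down deoxynucleotides, rose to 0.91 ± 0.13 (SE, adjusted p = 0.00593), and it was well above background in the KO channel on 2 of the 4 arrays.

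The E2F family split on the GALNT3/T6 KO-labelled arrays. E2F8, a repressor that is itself an E2F target, stood at -0.86 and -1.20 in GALNT3 KO and at 1.80 and 2.01 on the GALNT3/T6 KO-labelled arrays, with a fall to -1.03 ± 0.12 (SE, adjusted p = 0.0234), a rise to 1.91 ± 0.12 (SE, adjusted p = 0.000534) and a difference of 2.94 ± 0.17 (SE, adjusted p = 0.000942). E2F7, its closest relative, fell in both, to -1.43 ± 0.26 (SE, adjusted p = 0.0431) and -1.61 ± 0.26 (SE, adjusted p = 0.00841), with single values of -2.14 and -1.09 on the GALNT3/T6 KO-labelled arrays. E2F3, an activator like E2F1, stood at -0.31 and -0.77 and at -2.05 and -1.97, and it fell on the GALNT3/T6 KO-labelled arrays to -2.01 ± 0.13 (SE, adjusted p = 0.000628). E2F4, which acts with the RB relatives in resting cells, fell there to -1.58 ± 0.08 (SE, adjusted p = 0.000344), from -0.55 and -0.59 in GALNT3 KO. In GALNT3 KO E2F4 was called lower too (adjusted p = 0.0317). E2F1 and E2F8 thus lay above Ctrl on the GALNT3/T6 KO-labelled arrays while E2F3, E2F4 and E2F7 lay below. E2F2 and E2F5 were also called lower there, at -0.89 ± 0.16 (SE, adjusted p = 0.0107) and -0.72 ± 0.10 (SE, adjusted p = 0.0052). E2F6 was not called, at -0.21 (adjusted p = 0.256).

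RB1, the repressor that holds E2F factors in G1 phase, fell to -0.84 ± 0.14 (SE, adjusted p = 0.0375) in GALNT3 KO and stood at -1.08 and -0.72 on the GALNT3/T6 KO-labelled arrays, and its relative RBL1 differed between the groups by 1.23 ± 0.25 (SE, adjusted p = 0.0265). FBXW7, which marks cyclin E for destruction, stood at -1.57 and -1.47 on the GALNT3/T6 KO-labelled arrays and differed by -1.21 ± 0.17 (SE, adjusted p = 0.0104). CDC25A, the phosphatase that activates CDK2, stood at -1.36 and -1.01 and differed by -1.18 ± 0.17 (SE, adjusted p = 0.0108). Of the chromatin genes, NASP, a histone chaperone, fell on the GALNT3/T6 KO-labelled arrays to -1.96 ± 0.24 (SE, adjusted p = 0.00375), and CDCA7, a partner of a chromatin remodeler, to -1.65 ± 0.09 (SE, adjusted p = 0.000399). CTPS1, which makes CTP, differed between the groups by -1.08 ± 0.18 (SE, adjusted p = 0.0156). In GALNT3 KO the fork factors RECQL4 and WDHD1 fell to -0.92 ± 0.19 (SE, adjusted p = 0.0491) and -0.80 ± 0.12 (SE, adjusted p = 0.0316). Both fell about as far on the GALNT3/T6 KO-labelled arrays, to -0.85 ± 0.19 (SE, adjusted p = 0.0204) and -0.84 ± 0.12 (SE, adjusted p = 0.00523).

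Genes of mitosis, which peak after S phase, are set beside these as a list of 24. In GALNT3 KO 0 were called higher (beside 4.78% of all genes) and 9 lower (37.5%, beside 6.42%), with a median of -0.64, beside -0.40 for the replication genes. On the GALNT3/T6 KO-labelled arrays 2 were higher (8.33%, beside 24.8%) and 6 lower (25.0%, near the 23.1% of all genes), with a median of -0.18, beside -0.47. Between the groups 8 were higher (33.3%) and 1 lower (4.17%), beside 11.8% of all genes each way, with a median difference of 0.45, beside -0.04, so on the GALNT3/T6 KO-labelled arrays the mitosis genes lay closer to Ctrl than the replication genes did and in GALNT3 KO further below it. Whether the lists differ was not tested.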

How the data were processed

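Spot intensities of 4 two-colour Agilent 44K arrays were deposited as scanner output. The authors extracted them with Agilent Feature Extraction, given as 8.5.1.1 per the labels and as 10.7.3.1 per the file headers, on a design annotated to hg19. The deposited series table holds the log10 ratio of KO over Ctrl with column medians of 0 to 0.0046, and the scanner files' log ratio column is its source within 0.005. Groups were taken from the labels. With limma 3.58.1 in R 4.3.3, backgrounds were corrected with normexp (offset 50), dyes normalized by loess within each array with control and outlier spots at weight 0, and spots of a probe averaged. Each array held 45015 spots, 1639 of them controls. Of the others 86.9% to 93.8% passed that array's background test in a channel and 0 were saturated. The number of arrays limits the precision. Of 41000 probes 28078 were named through RefSeq accessions and the rest kept the name in the file. Where a gene had several probes, the brightest was taken of those that passed Agilent's background test, in either channel, on each array of 1 group or more. For the 52 genes, 69 probes (17 genes have 2) were well above background in both channels on every array, and 7 outlier spots were left out. One limma model over all 4 arrays set each group mean against 0 and the groups against each other. Calls rest on p-values, two-sided, adjusted over 27309 genes by Benjamini-Hochberg and read at a limit of 0.05. Clones are the replicates. The script was tested on simulated data. The genes, gene lists and tests were chosen with earlier results of these data known. Named in full were the called members, up to 10 per direction and comparison, and of the other replication genes up to 5, with GALNT3, GALNT6 and members whose probes disagree.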

Additional observations from a re-analysis of the deposited data

Results flagged for a closer look

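A limma test of the difference between the GALNT3/T6 KO-labelled arrays and the GALNT3 KO arrays singled out the replication genes whose change from Ctrl differed between the groups, with p adjusted by Benjamini-Hochberg over all genes tested and a limit of 0.05. The groups share Ctrl as the reference, and 11.8% of all genes tested were called in each direction of this difference. Higher with the GALNT3/T6 KO label were E2F1 (a difference of 1.88 in mean log2 ratio), CCNE2 (1.86), POLD3 (1.72), PRIM1 (0.91), PRIM2 (0.80), GINS1 (0.66) and DUT (0.64). Lower were CCNE1 (-1.51), GINS4 (-1.38), DTL (-1.29), POLD1 (-1.07), ORC6 (-1.01), ORC2 (-0.999), LIG1 (-0.99), MCM10 (-0.84), RFC3 (-0.79), GINS3 (-0.71) and ORC5 (-0.67). For E2F1, CCNE2, POLD3, PRIM1, PRIM2, DUT, RFC3, ORC2 and ORC5 both clones of a group lay on the same side of Ctrl, and the groups on opposite sides. ORC5 did so narrowly, at 0.03 and 0.04 in GALNT3 KO, where limma did not call it (adjusted p = 0.765). The second probe of DUT lay below Ctrl in both groups, at -0.003 and -0.007 with the GALNT3/T6 KO label. These genes came from those already called different, and the share of all genes with this pattern was not counted. CCNE2, POLD3 and RFC3 were called in both groups, in opposite directions. In GALNT3 KO the call of RFC3 was lost in 7 of 15 other settings and that of POLD3 in 5 of 15. These include the settings that leave a lone array in that group. The CCNE2 call in GALNT3 KO was not followed through these settings. The second probe of RFC3 differed by 0.02 between the groups.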

How the results depend on the processing

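No gene that was followed through the alternatives changed its direction. Followed were the called members with the largest values, up to 10 per direction and comparison, up to 5 other replication genes, GALNT3 and GALNT6. Calls beyond these, such as CCNE2 and PRIM2 in GALNT3 KO, were not followed. With Agilent's log ratio or the deposited table, 4 members (0 higher, 4 lower) and 1 other replication gene were called in GALNT3 KO, and the member median of its clone 2 moved to -0.37 and -0.38. Of all genes 597 and 600 were called there, beside 3059 in the main fit. Median centring gave 0 higher members in GALNT3 KO, array medians of -0.49 and -0.60, and 11 members between the groups, 8 higher and 3 lower, so 72.7% of those calls were higher against 38.9%. It also turned the higher share of all called genes in GALNT3 KO from 42.7% to 23.5%, and Agilent's log ratio to 33.3%. The mean of all probes gave 0 higher members and 7 other replication genes in GALNT3 KO and a median of -0.45 on the array of clone 1. With the arrays of the group alone, 29 members (28 lower) and 36 other genes were called in GALNT3 KO, and 27 other genes with the GALNT3/T6 KO label. Of all genes 9503 and 8305 were called in the groups so fitted. The study criterion gave 0 higher members in GALNT3 KO. The methods' t-test, adjusted, called 0 members (0 higher, 0 lower) and 0 other genes in each comparison, though 7, 1 and 11 members passed p of 0.05 unadjusted. Of all 27309 genes it called 0, 1 and 33, so these 0 counts say little about the members. At the study criterion it gave 3 members (0 higher, 3 lower) and 3 other genes in GALNT3 KO, 1 (0 higher, 1 lower) and 12 with the GALNT3/T6 KO label, and 11 (5 lower) between the groups.

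Leaving out 1 array gave 0 to 29 members in GALNT3 KO (0 to 1 higher, 0 to 28 lower) and 0 to 36 other genes, the 0 without either GALNT3 KO array, as a lone array is assumed to vary like the other group. With the GALNT3/T6 KO label it gave 21 to 39 members (3 to 10 higher, 18 to 34 lower) and 27 to 43 other genes, and between the groups 1 to 32 (1 to 18 higher, 0 to 23 lower) and 2 to 28. Without GALNT3 KO replicate 1 the call left between the groups was CCNE2 (adjusted p = 0.0458), and without replicate 2 those left were CCNE2 (0.049) and E2F1 (0.0479).

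The labels share clone numbers, and same-numbered clones deviated in opposite ways (r = -0.24 across genes). With 2 arrays per group this value cannot tell whether a clone labelled GALNT3/T6 KO came from the GALNT3 KO clone of its number. With the replicate block, 0 members (0 higher, 0 lower) and 0 other genes were called in GALNT3 KO, where 20 members passed p of 0.05 unadjusted. It called 26 members with the GALNT3/T6 KO label and 8 between the groups, 4 higher and 4 lower. Of all genes it called 81, 10136 and 4762 in these comparisons. Crossed pairing, chosen after the data were seen, called 16, 31 and 19 members, beside 3662, 13589 and 7322 of all genes. It also called 18 other replication genes in GALNT3 KO. The causes were not tested.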
